A study of Mus musculus with 8 samples.

Results

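The core circadian clock genes were read in the livers of WT mice and of mice lacking miR-33 in hepatocytes (HKO). They were taken by symbol as Clock, Npas2, Per1, Per2, Per3, Cry1, Cry2, Dbp, Nr1d1 and Nr1d2, and all 10 were among the 17810 genes listed. RNA-Seq had been made from 1 library per liver of 4 WT and 4 HKO male mice. Every mouse was fed chow until 8 weeks of age and then, for 3 months, a high-fat diet without added choline (CD-HFD), and was 5 months old when the liver was taken after a fast. HKO mice were miR-33 loxP/loxP and carried Cre recombinase under the albumin promoter, which is active in hepatocytes. Whether it also acted in cholangiocytes was not tested, and the libraries hold RNA of all cells of the liver. Whether the WT mice carried the floxed alleles, and the clock hour at which each liver was taken, are not given in the sources used here.

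The circadian clock is a feedback loop of transcription that runs in nearly every cell. CLOCK, or its relative NPAS2, pairs with BMAL1 (the product of Arntl) and activates genes through E-box elements, among them the Per and Cry genes, Nr1d1, Nr1d2 and Dbp. PER and CRY proteins accumulate and block CLOCK and BMAL1, while REV-ERBα and REV-ERBβ (Nr1d1 and Nr1d2) repress Arntl, Npas2, Clock and Cry1. In the liver of nocturnal mice, Nr1d1 and Dbp messages are highest during the day and Per1 and Per2 around dusk. Arntl, Npas2 and Cry1 are highest around the end of the night. Meal times as well as light set the phase of the liver clock. The levels of these genes therefore depend on the hour at which a liver is taken, and the comparison of the genotypes addresses whether the clock stood alike in both.

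The totals ranged from 12174339 to 18735785 counts per liver, so that 3 counts, taken as the floor, stood for 0.16 to 0.246 CPM, which covers counting error only. CPM are counts divided by the library total and brought to a common scale, here by TMM, which corrects for library composition. The 4 hepatocyte markers (Alb, Apoa1, Ttr, Cps1) summed to between 61301 and 115165 CPM per liver, and none was at 0. The 4 cholangiocyte markers summed to 44.6 CPM in HKO replicate 2, to 16.4 CPM in HKO replicate 3 and to 6.17 to 8.94 CPM in the other livers. The sum in HKO replicate 3 was nearly all Sox9, at 15.5 CPM. Krt19, Krt7 and Epcam were at 0.169, 0.282 and 0.451 CPM in that liver. The Kupffer cell markers ranged from 34.0 to 112 CPM, with HKO replicate 2 the lowest and WT replicate 3 the highest. Of the cell type markers tested, edgeR called 1, Cps1 of the hepatocyte list, at a log2 fold change of 1.26. The part of cell makeup in the values below was not tested. The deletion could not be checked since miR-33 itself was not analysed here, and the HKO libraries come before the WT libraries in the numbering of the deposited columns, so genotype and place in that numbering cannot be told apart.

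None of the core clock genes differed between the genotypes by the test. Of the 10 genes, 9 had enough counts to be tested, and edgeR's quasi-likelihood test called 0 of them at an adjusted p under 0.05 (Benjamini-Hochberg), where 5.15% of all 12395 genes tested did. DESeq2 and limma-voom also called 0 of the 9, against 8.18% and 4.91% of all genes. At an unadjusted p under 0.05 the count was again 0 of 9, against 19.6% of all genes, and no gene of the 9 was without overlap between the genotypes, against 12.5%. At the share of 5.15%, 0.463 of 9 genes would be called, so a count of 0 does not set the clock genes apart from other genes. All 9 of the 95% intervals of the log2 fold change (HKO over WT) included 0, the lowest bound of any gene was -0.51 and the highest 0.97, so each interval lay within 1 log2 unit of 0 on either side. The median absolute log2 fold change was 0.15 over the 9 genes and 0.16 over all genes tested.

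Of the 9 genes, 8 had a log2 fold change above 0 from edgeR and 1 below, and over all genes 51.6% were above. When libraries were scaled by their totals alone, which moved the median of all genes from 0.01 to -0.08 on the log2 scale, 5 of the 9 were above 0 and 35.2% of all genes were. With any 1 liver left out, between 6 and 9 were above 0.

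**Figure D1:**
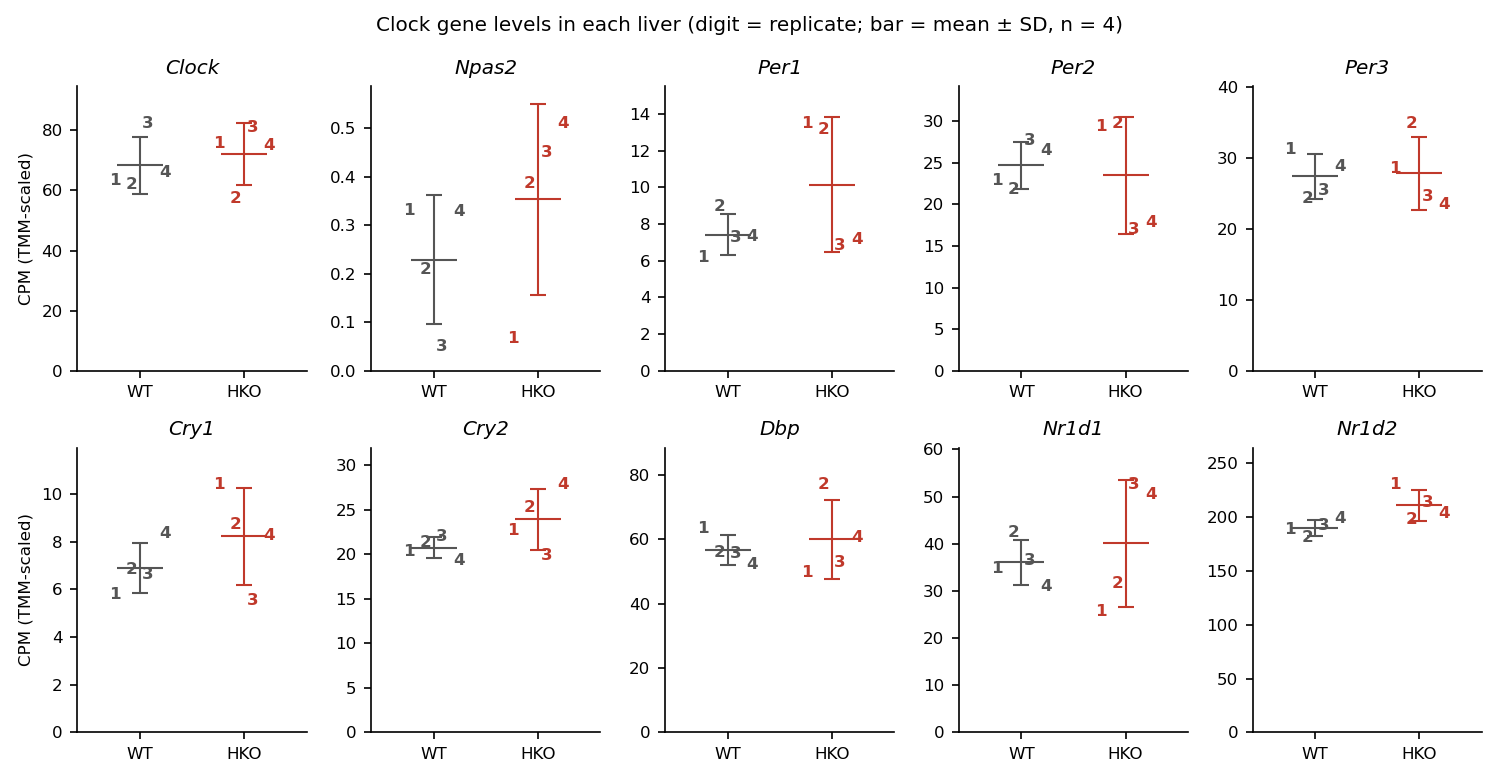
Level of each of the 10 core clock genes in CPM (linear axis from 0), with WT livers in grey and HKO livers in red; each digit is the replicate number of a liver and the bars give the mean and SD of 4 livers. The genotypes overlap for every gene, and Per1, Per2 and Nr1d1 range more widely in the HKO livers.

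Clock and Npas2 encode the DNA-binding partners of BMAL1. Clock (chromosome 5, 76209868 to 76304792, minus strand, GRCm38 as are all positions below) was at 63.3, 61.9, 82.4 and 65.9 CPM in WT replicates 1 to 4. In HKO replicates 1 to 4 it was at 75.5, 57.3, 80.9 and 74.9 CPM. The lowest value was in an HKO liver and the highest in a WT liver. The means were 68.4 ± 9.46 CPM (SD, n = 4) and 72.2 ± 10.3 CPM (SD, n = 4), a log2 fold change of 0.08 (SE 0.12, the standard error, 95% interval -0.19 to 0.34, edgeR adjusted p = 0.794). Npas2 (chromosome 1, 39194272 to 39363240, plus strand) was close to the floor, with 4, 3, 1 and 5 counts in the WT and 1, 5, 8 and 6 counts in the HKO livers. These counts stood for 0.331, 0.209, 0.0497 and 0.329 CPM in WT livers and 0.0675, 0.386, 0.451 and 0.511 CPM in HKO livers. With 33 counts in all 8 livers Npas2 did not pass the filter on low counts, and a difference was not detectable at this depth.

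The Per genes encode the period proteins, the inhibitors that build up toward the night. Their promoters are printed here because Per1 carries the E-box through which CLOCK and BMAL1 act and Per3 the D-box bound by DBP and its relatives. The windows run from 250 bases before to 50 after the RefSeq start, GRCm38.p6, each 5′ to 3′ on the strand of its gene, and capitals mark the motif. That of Per1 lies at chr11:69098699-69098998 (plus strand) and that of Per3 at chr4:151044616-151044915 (minus strand).
Per1: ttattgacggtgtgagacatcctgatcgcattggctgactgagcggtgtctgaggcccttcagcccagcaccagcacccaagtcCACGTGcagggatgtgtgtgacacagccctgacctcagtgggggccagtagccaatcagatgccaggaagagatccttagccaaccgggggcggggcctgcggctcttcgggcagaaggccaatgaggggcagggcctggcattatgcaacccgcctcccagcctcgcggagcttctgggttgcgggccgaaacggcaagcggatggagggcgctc
Per3: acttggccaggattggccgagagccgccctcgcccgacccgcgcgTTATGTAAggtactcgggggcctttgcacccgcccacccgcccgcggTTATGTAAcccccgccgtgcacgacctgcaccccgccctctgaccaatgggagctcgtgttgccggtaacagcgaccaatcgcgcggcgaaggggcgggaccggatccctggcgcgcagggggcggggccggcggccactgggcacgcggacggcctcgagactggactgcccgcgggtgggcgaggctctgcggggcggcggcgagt
The E-box letters CACGTG begin 166 bases before the start of Per1 and occur, on either strand, in 7.15% of 32851 RefSeq promoters of the same length. The other RefSeq window of Per1, chr11:69099902-69100201, holds no such match. The D-box letters TTATGTAA begin 205 and 158 bases before the start of Per3, and these or TTACGTAA occur on either strand in 1.056% of promoters. A match describes letters in this window only.

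Per1 (chromosome 11, 69098949 to 69109957, plus strand) was at 6.20, 8.94, 7.26 and 7.30 CPM in WT replicates 1 to 4. It was at 13.5, 13.1, 6.82 and 7.15 CPM in HKO replicates 1 to 4. HKO replicates 1 and 2 stood above every WT liver, while HKO replicates 3 and 4 fell among the WT livers. The log2 fold change was 0.45 (SE 0.24, 95% interval -0.08 to 0.97, edgeR adjusted p = 0.34), the largest of the 9 genes in size. A two-sided exact permutation test of the log2 CPM gave p = 0.314.

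Per2 (chromosome 1, 91415982 to 91459328, minus strand) was at 22.8, 21.8, 27.7 and 26.4 CPM in the WT livers. In HKO replicates 1 to 4 it was at 29.4, 29.7, 17.0 and 17.8 CPM. The HKO livers lay outside the WT range on both sides, replicates 1 and 2 above it and replicates 3 and 4 below it. The means, 24.7 ± 2.81 CPM (WT, SD, n = 4) and 23.5 ± 7.01 CPM (HKO, SD, n = 4), gave a log2 fold change of -0.07 (SE 0.19, 95% interval -0.51 to 0.36, edgeR adjusted p = 0.885).

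Per3 (chromosome 4, 151003655 to 151044665, minus strand) was at 31.2, 24.3, 25.4 and 28.8 CPM in WT and 28.5, 34.9, 24.5 and 23.5 CPM in HKO livers. HKO replicate 2 was the highest and HKO replicate 4 the lowest of the 8. Its log2 fold change was 0.02 (SE 0.13, 95% interval -0.26 to 0.31, edgeR adjusted p = 0.951), the smallest of the 9.

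The cryptochromes encoded by Cry1 and Cry2 are the stronger repressors of CLOCK and BMAL1, and Cry1 is itself held down by the REV-ERB proteins. Cry1 (chromosome 10, 85131700 to 85185054, minus strand) was at 5.79, 6.84, 6.61 and 8.35 CPM in WT and 10.4, 8.72, 5.52 and 8.26 CPM in HKO livers. HKO replicate 1 was the highest and HKO replicate 3 the lowest. The log2 fold change was 0.25 (SE 0.19, 95% interval -0.17 to 0.67, edgeR adjusted p = 0.541). Cry2 (chromosome 2, 92403647 to 92434069, minus strand) was at 20.3, 21.4, 22 and 19.3 CPM in WT and 22.7, 25.3, 19.9 and 27.8 CPM in HKO livers. The WT livers lay close together, HKO replicates 1, 2 and 4 above all of them and HKO replicate 3 among them. The log2 fold change of Cry2 was 0.20 (SE 0.11, 95% interval -0.04 to 0.45, edgeR adjusted p = 0.356). The antisense gene D930015M05Rik, whose listed span overlaps Cry2, had at most 0.349 CPM in any liver.

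Since the HKO mice lack miR-33, the longest annotated 3′UTR of each clock gene (GENCODE vM21) was searched for the seed match of miR-33-5p, whose mature form lies at chr15:82198127-82198147 (plus strand, RefSeq, GRCm38.p6). The seed, bases 2 to 8, is in capitals in the first line below. Matches were CAATGCA, which pairs with all of it, or AATGCAA, which pairs with bases 2 to 7 and has an A opposite base 1. Cry2 holds both words, overlapping as 8 letters, and Clock holds AATGCAA. The 26 bases shown around each lie at chr2:92403903-92403928 (Cry2) and chr5:76213150-76213175 (Clock), both on the minus strand, and capitals mark these words.
mmu-miR-33-5p: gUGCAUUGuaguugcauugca
Cry2: ccagccttcCAATGCAAggagcagtc
Clock: ttctcaagtaAATGCAAaggaaaaga
The other 8 clock genes hold no match, and of all tested genes with a 3′UTR 16.1% hold one. Neither Cry2 nor Clock differed between the genotypes by the test, with the values given above.

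Nr1d1 and Nr1d2 encode REV-ERBα and REV-ERBβ, receptors for heme that repress through the corepressor NCOR1 and the deacetylase HDAC3. The promoter of Nr1d1 (chr11:98775328-98775627, minus strand, RefSeq, GRCm38.p6, the same window as above) is printed for comparison with that of Per1, since both genes are driven by CLOCK and BMAL1.
Nr1d1: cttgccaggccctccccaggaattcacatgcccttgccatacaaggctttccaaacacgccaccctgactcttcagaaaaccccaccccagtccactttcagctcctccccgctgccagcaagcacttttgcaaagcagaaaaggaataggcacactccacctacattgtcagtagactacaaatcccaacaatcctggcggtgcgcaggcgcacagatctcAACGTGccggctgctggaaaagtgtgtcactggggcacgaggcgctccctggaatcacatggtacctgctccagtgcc
It holds no CACGTG but the E-box variant CACGTT, here in capitals as AACGTG since it lies on the other strand, 28 bases before the start. This variant occurs in 4.685% of promoters on either strand.

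Nr1d1 (chromosome 11, 98767932 to 98775377, minus strand) was at 34.6, 42.4, 36.4 and 30.8 CPM in WT replicates 1 to 4. In HKO replicates 1 to 4 it was at 25.7, 31.7, 52.5 and 50.4 CPM. HKO replicates 3 and 4, the lowest 2 livers for Per2, were the highest 2 for Nr1d1, and HKO replicate 1 was the lowest. The means of 36.1 ± 4.81 CPM (SD, n = 4) and 40.1 ± 13.4 CPM (SD, n = 4) gave a log2 fold change of 0.15 (SE 0.23, 95% interval -0.38 to 0.69, edgeR adjusted p = 0.791). The 3′ end of Nr1d1 overlaps Thra on the other strand over 1075 bases, and the counts of Nr1d1 were fractional in all 8 livers, so some reads may have been shared. Thra ranged from 5.74 to 8.17 CPM.

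Nr1d2 (chromosome 14, 18204056 to 18239106, minus strand) was the steadiest of the clock genes, at 188, 181, 193 and 199 CPM in WT and 230, 198, 214 and 203 CPM in HKO livers. HKO replicates 1, 3 and 4 stood above every WT liver, and HKO replicate 2 lay just below WT replicate 4. The log2 fold change was 0.15 (SE 0.08, 95% interval -0.02 to 0.32, edgeR adjusted p = 0.323). The exact permutation test gave p = 0.0571, the lowest of the 9 genes, and 0.514 after adjustment over the 9 (smallest possible p 0.0286).

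Dbp encodes an activator of the PAR bZIP family that carries the rhythm to liver genes with a D-box, and its message has one of the widest daily swings in liver. It lies on chromosome 7 from 45705247 to 45710203 on the plus strand. Dbp was at 63.2, 55.8, 55.7 and 52.1 CPM in WT and 49.5, 77.0, 52.9 and 60.5 CPM in HKO livers. HKO replicate 2 was the highest and HKO replicate 1 the lowest of the 8 livers, which spanned 49.5 to 77.0 CPM. The log2 fold change was 0.08 (SE 0.13, 95% interval -0.20 to 0.36, edgeR adjusted p = 0.798). Sphk2 overlaps Dbp over 741 bases on the other strand and ranged from 22.7 to 31.3 CPM, and the counts of Dbp were fractional in all 8 livers. Among 11869 tested genes with a mean of at least 1 CPM, Pmf1 (r = 0.986), Ift81 (r = 0.946), Rab27b (r = 0.933), Mospd3 (r = 0.924) and Cnpy4 (r = 0.919) had the patterns most like that of Dbp by Pearson's r of log2 CPM over the 8 livers. After the mean of each genotype was subtracted, the list was Pmf1 (r = 0.988), Aaas (r = 0.980), 9030619P08Rik (r = 0.978), Pmepa1 (r = 0.967) and Tmem219 (r = 0.967). These are the highest of many correlations over few livers and describe likeness only.

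**Figure D2:**
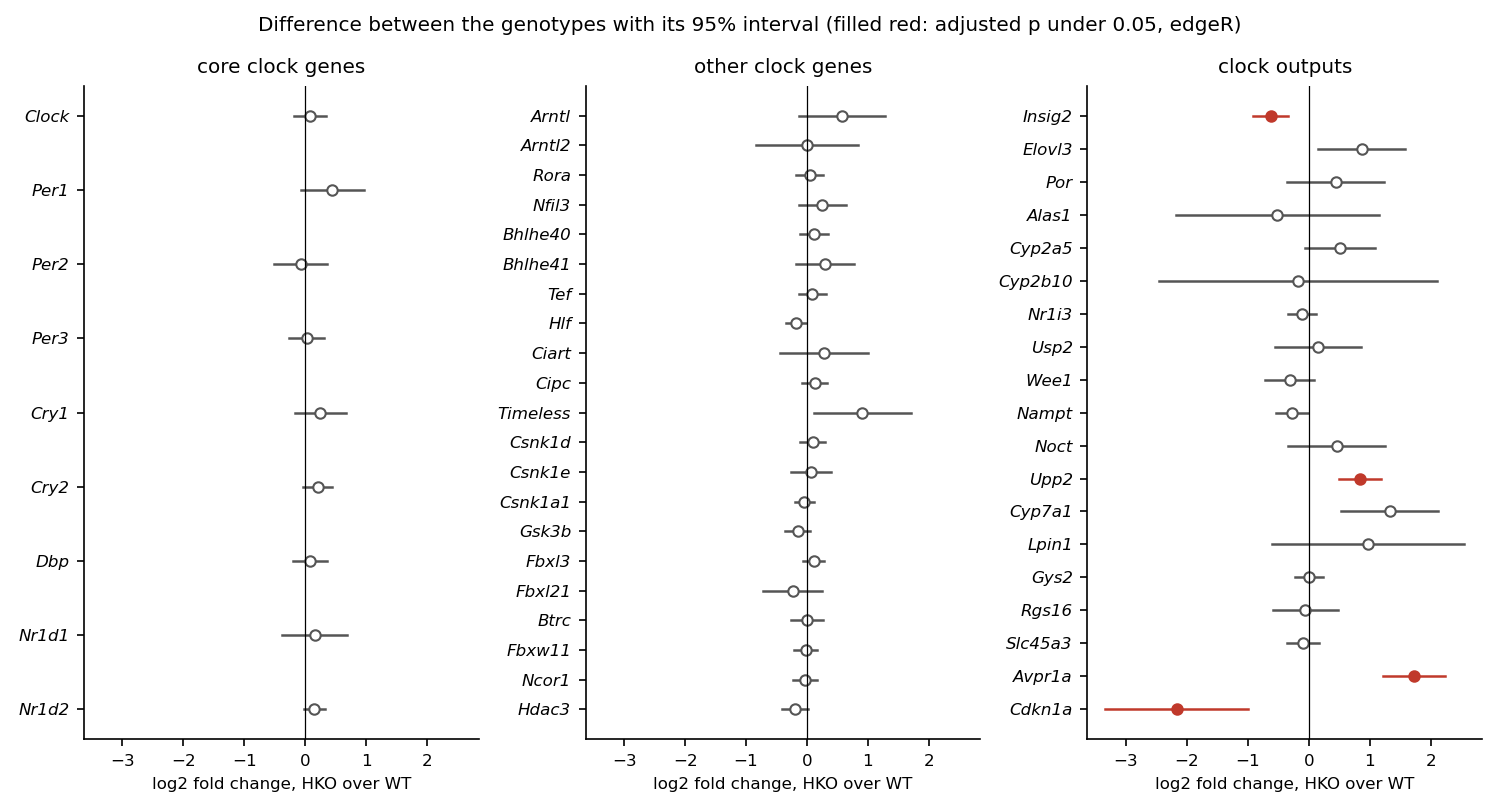
Log2 fold change of HKO over WT livers with its 95% interval from edgeR for the core clock genes tested, other clock genes and clock outputs (n = 4 livers per genotype), on 1 common axis; filled red points have an adjusted p under 0.05. All 9 core clock intervals include 0, and the filled points are the outputs Insig2, Upp2, Avpr1a and Cdkn1a.

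Set beside each other per length, as CPM per kilobase of the longest protein-coding transcript (GENCODE vM21) averaged over the 8 livers, the REV-ERB genes and Dbp were the most abundant and Npas2 the least. Nr1d2 was at 43.0, Dbp at 31.8, Nr1d1 at 14 and Clock at 7.21 CPM per kb. Cry2 was at 5.62, Per3 at 4.61, Per2 at 4.13, Cry1 at 2.50, Per1 at 1.88 and Npas2 at 0.0689 CPM per kb. Neighbours in this order overlapped in their ranges over the livers, except Dbp and Nr1d1, Nr1d1 and Clock, and Per1 and Npas2. Within a liver the order was firmer, with Nr1d2 above Dbp, Per2 above Cry1 and Cry1 above Per1 in 8 of 8 livers, and with Per3 above Per2 in 6 of 8. Arntl, which is high when Nr1d1 and Dbp are low, ranged from 0.361 to 1.12 CPM per kb.

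Ratios of genes with opposite daily phase were read as a measure of where in its cycle each liver stood, as a description. The log2 ratio of Nr1d1 to Arntl, per length, was between 3.83 and 5.14 in WT and between 3.15 and 4.64 in HKO livers. That of Dbp to Arntl was between 5.16 and 6.57 in WT and between 4.66 and 6.49 in HKO livers. Both ratios overlapped between the genotypes, but that of Dbp to Arntl only through HKO replicate 2, at 6.49. HKO replicates 1, 3 and 4, at 4.66, 4.93 and 4.88, were below every WT liver in it. For Nr1d1 to Arntl only HKO replicate 1, at 3.15, was below every WT liver. Nr1d1 and Dbp were above Arntl in every liver. Of the genes that peak in the day or around dusk, 11 were tested, with 9 above and 2 below 0 in log2 fold change (51.6% of all genes were above), 0 called by edgeR, DESeq2 or limma-voom (5.15%, 8.18% and 4.91% of all genes), 1 at an unadjusted p under 0.05 from edgeR (19.6% of all genes), and a median of 0.15. Of those that peak around the end of the night, 4 were tested, with 4 above 0, 0 called by these tools, 0 at an unadjusted p under 0.05, and a median of 0.25. With 1 time of sampling per liver, a shift in phase and a change in level cannot be told apart, and a shift too small to move these genes beyond their intervals would not be seen.

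The livers were also compared by their spread. The SD of log2 CPM was larger in HKO than in WT livers for 9 of 9 clock genes, and for 53.7% of all genes tested. For Per2 it was 0.164 in WT and 0.439 in HKO livers, a ratio of 2.68. For Nr1d1 it was 0.190 and 0.505, a ratio of 2.66, and for Per1 0.212 and 0.531, a ratio of 2.50. These 3 genes had the largest SD in the HKO livers. Cry2 and Dbp, narrower in both genotypes, had ratios of 2.55 and 2.40, and Cry1, Nr1d2, Per3 and Clock of 1.77, 1.71, 1.57 and 1.16. A two-sided permutation test of the ratio over the 70 allocations of livers was chosen after the values were seen. It was made on values centred on each genotype mean, so its p-values are approximate. The permutation test gave p = 0.0286 for Per1 and for Per2 (adjusted p = 0.129 over 9 genes), the smallest it can give. For Nr1d1 the permutation test gave p = 0.0571 (adjusted p = 0.171). No ratio passed after adjustment. With this smallest p, a ratio could pass only if most of the 9 genes reached it. The adjusted values therefore cannot decide whether the spread differed. The genes are read in the same livers and so are not independent. With any 1 liver left out, between 7 and 9 of the 9 genes kept the larger SD in HKO livers, the lowest being 7 without HKO replicate 2, the liver with the high cholangiocyte markers, against 50.5% of all genes there.

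**Figure D3:**
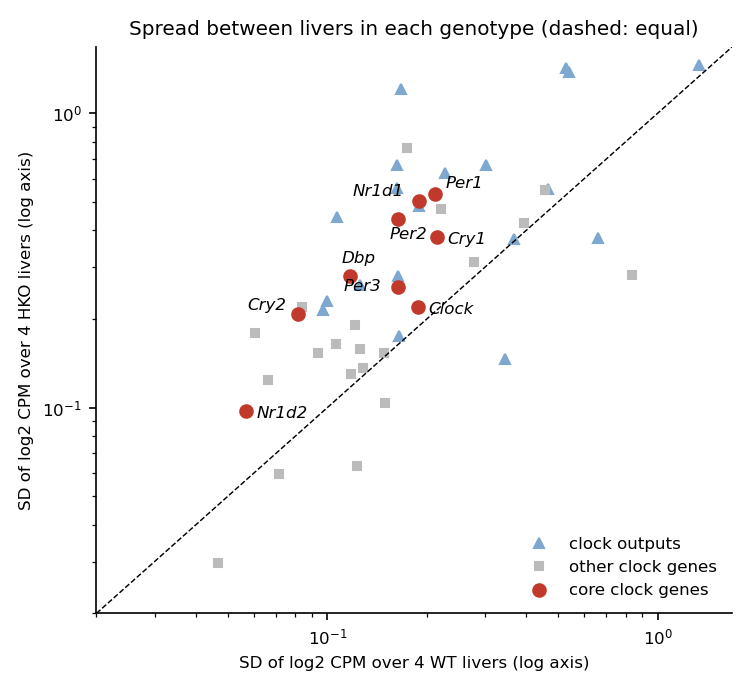
SD of log2 CPM over the 4 HKO livers against that over the 4 WT livers, both on log axes, with 1 point per gene and a dashed line where both are equal. All 9 core clock genes lie above the line, and Per1, Per2 and Nr1d1 are the highest of them.

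The liver-by-liver values show which genes carried this spread. Against the mean of the WT livers, Per1 stood at 0.86 and 0.82 log2 units in HKO replicates 1 and 2 and at -0.11 and -0.04 in HKO replicates 3 and 4. Per2 stood at 0.26 and 0.27 in replicates 1 and 2 and at -0.53 and -0.46 in replicates 3 and 4. Nr1d1 ran the other way, at -0.48 and -0.18 in replicates 1 and 2 and at 0.55 and 0.49 in replicates 3 and 4. Dbp did not follow either, with 0.44 in replicate 2 and between -0.19 and 0.10 in the other HKO livers. The log2 ratio of Per2 to Nr1d1, per length, was -0.91, -1.19, -2.73 and -2.60 in HKO replicates 1 to 4, on either side of the WT range of -2.06 to -1.32.

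**Figure D4:**
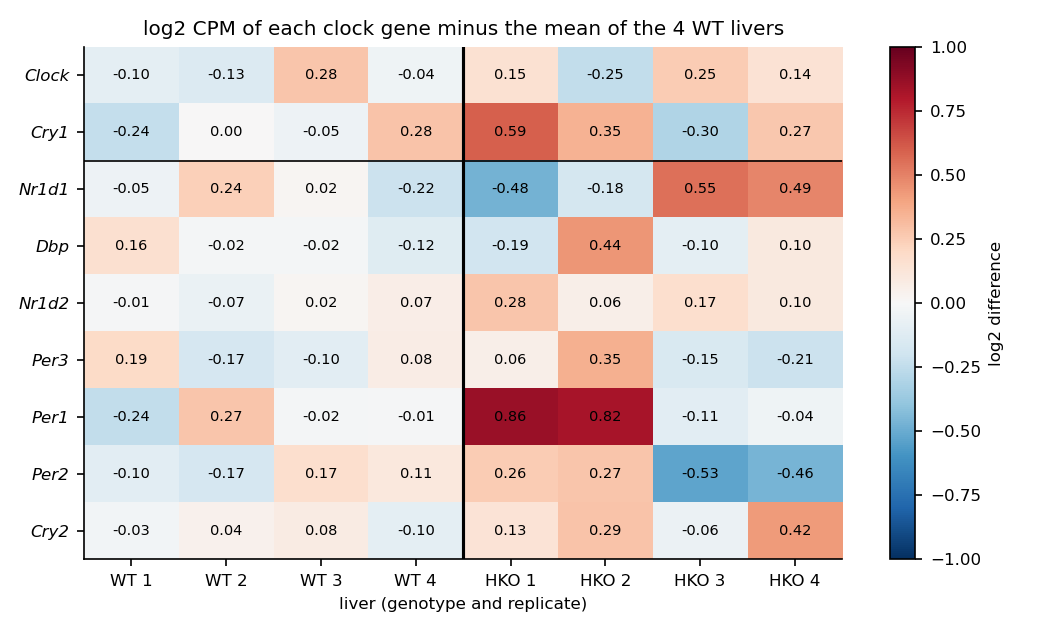
Log2 CPM of the 9 tested clock genes in each liver minus the mean of the 4 WT livers, with livers in columns (WT left, HKO right of the vertical line), and genes of the night-end above and genes of the day and dusk below the horizontal line. HKO replicates 1 and 2 are high for Per1 (0.86 and 0.82) and below the WT mean for Nr1d1 (-0.48 and -0.18), and HKO replicates 3 and 4 are low for Per2 (-0.53 and -0.46) and high for Nr1d1 (0.55 and 0.49).

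Across the 8 livers Per2 and Nr1d1 ran opposite to each other. Pearson's r of log2 CPM was -0.92 (exact permutation p = 0.00164, adjusted p = 0.0589 over the 36 pairs of clock genes) and Spearman's rho was -0.83 (exact permutation p = 0.0154, adjusted p = 0.277). With the genotype means subtracted r was -0.92 (exact permutation within genotypes, p = 0.0799, adjusted p = 0.575), and without the 2 livers farthest in Per2 from its median it was -0.74. Per1 and Cry1 ran together with r = 0.757 (exact permutation p = 0.0309, adjusted p = 0.461) and rho = 0.857 (exact permutation p = 0.0107, adjusted p = 0.277), and r was 0.36 without the 2 farthest livers, so that relation rests on those livers. Of the 36 pairs 0 passed after adjustment, for r or for rho.

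**Figure D5:**
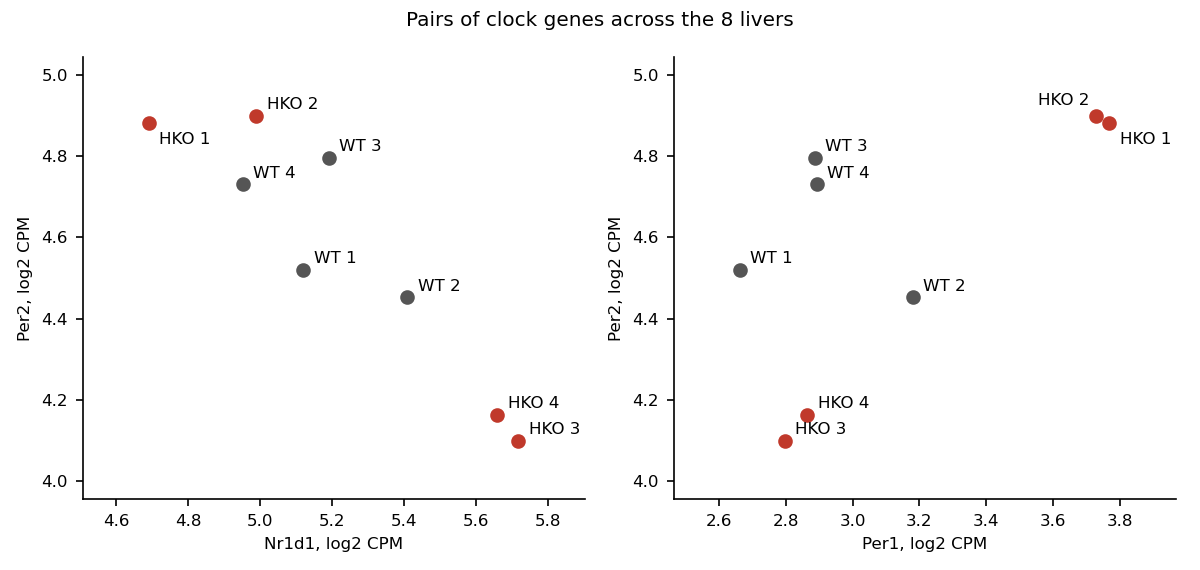
Log2 CPM of Per2 against Nr1d1 (left) and against Per1 (right), with 1 labelled point per liver, WT in grey and HKO in red. On the left the livers run from HKO replicates 1 and 2 at the upper left to HKO replicates 3 and 4 at the lower right with the WT livers between (r = -0.92), and on the right HKO replicates 1 and 2 stand apart at high Per1.

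The other parts of the clock were read from a list of 22 genes, of which 21 were tested and Rorb was not analysed here. Of the 21, 0 had an adjusted p under 0.05 from edgeR, from DESeq2 or from limma-voom (5.15%, 8.18% and 4.91% of all genes), 2 had an unadjusted p under 0.05 from edgeR (19.6% of all genes) and the median log2 fold change was 0.07, with 14 genes above 0 and 7 below. Under total count scaling 9 were above 0 and the median was -0.02. Arntl, the partner gene of Clock, was at 1.07, 1.61, 2.04 and 2.37 CPM in WT and 3.17, 1.39, 2.82 and 3.32 CPM in HKO livers. HKO replicates 1, 3 and 4 were above every WT liver and HKO replicate 2 was among them, a log2 fold change of 0.58 (SE 0.32, 95% interval -0.13 to 1.28, edgeR adjusted p = 0.364). Rora, an activator that competes with the REV-ERB proteins, had a log2 fold change of 0.04 (-0.04 under total count scaling). Nfil3, a repressor at D-boxes, had 0.25, and Bhlhe40 and Bhlhe41, repressors at E-boxes, had 0.11 and 0.29. Tef and Hlf, the relatives of Dbp, had 0.09 and -0.18. Ciart, a further repressor of CLOCK and BMAL1, had 0.27 and was at 10.6, 7.95, 4.39 and 3.23 CPM in HKO replicates 1 to 4, with the WT livers between 4.79 and 6.37 CPM. The 2 genes with an unadjusted p under 0.05 were Hlf (edgeR adjusted p = 0.193) and Timeless, whose log2 fold change was 0.91 (edgeR adjusted p = 0.194), and Timeless was named after its values were seen.

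Clock outputs of the liver did include genes that differed. Without clock genes, the lists of REV-ERB and ROR targets, of PAR bZIP targets and of further rhythmic liver genes held 19 genes, all tested. Of these 4 had an adjusted p under 0.05 from edgeR, 2 higher and 2 lower in HKO livers, where 1.71% of all genes were called higher and 3.44% lower. The median log2 fold change was 0.01, as it was over all genes tested. The lists were chosen with earlier results of these data known, so the count of calls does not show an excess over other genes. Of the REV-ERB and ROR targets, Insig2, which holds back the processing of SREBP, was at 362, 361, 295 and 299 CPM in WT and 228, 161, 254 and 210 CPM in HKO livers. It fell by 0.63 on the log2 scale (SE 0.13, edgeR adjusted p = 0.0216) and did not overlap between the genotypes. Elovl3, a fatty acid elongase of the same list, had a log2 fold change of 0.87 and an adjusted p of 0.174 from edgeR and 0.00679 from DESeq2, and edgeR called it without HKO replicate 2 (adjusted p = 0.00127).

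Of the other rhythmic liver genes, Avpr1a, the vasopressin receptor of hepatocytes, was at 9.76, 6.21, 6.56 and 10.2 CPM in WT and 24.8, 22.2, 22.4 and 38.5 CPM in HKO livers. It rose by a log2 fold change of 1.72 (SE 0.23, edgeR adjusted p = 0.00362). Upp2, a uridine phosphorylase, rose from 405 ± 98.1 CPM (SD, n = 4) to 725 ± 72.8 CPM (SD, n = 4), a log2 fold change of 0.84 (edgeR adjusted p = 0.0131). Cdkn1a, which encodes the cell cycle inhibitor p21, fell by 2.17 on the log2 scale (edgeR adjusted p = 0.0485). It had 49, 120, 189 and 97 counts in WT and 41, 22, 27 and 2 counts in HKO livers, the last under the floor. When each of the 8 livers was left out in turn, Avpr1a was called in 8 of 8 fits, Upp2 in 7, Insig2 in 5 and Cdkn1a in 2. Cyp7a1, the rate-limiting enzyme of bile acid synthesis, had a log2 fold change of 1.33 and an adjusted p of 0.08 from edgeR and 0.00382 from DESeq2. Of the 5 PAR bZIP targets 0 were called by edgeR and 0 had an unadjusted p under 0.05.

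Some of these outputs, but not all, were ordered among the HKO livers as Per1 and Per2 were. Usp2, a deubiquitinase, was at 69.4, 62.5, 28.2 and 35.4 CPM in HKO replicates 1 to 4 and between 34.6 and 49.0 CPM in WT livers. Por, the electron donor of cytochrome P450 enzymes, was at 299, 221, 104 and 149 CPM in the HKO replicates and between 109 and 182 CPM in WT livers. Alas1, the first enzyme of heme synthesis, was at 382, 294, 94.3 and 49.9 CPM in the HKO replicates and at up to 466 CPM in WT livers. In each of these HKO replicates 1 and 2 were higher than replicates 3 and 4, as for Per1, Per2 and Ciart, and the genes were named after their values were seen. None of these genes was called between the genotypes. Other outputs did not show this order, such as Elovl3 at 118, 59.4, 160 and 157 CPM in HKO replicates 1 to 4. Cyp2a5 did not either, at 548, 979, 487 and 1026 CPM. The outputs that showed it were not counted.

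Since meals set the liver clock, 12 genes that respond to fasting were read beside it. Of these 6 were above and 6 below 0 in log2 fold change, with a median of 0.01, and edgeR called 4, against 5.15% of all genes. This list too was chosen with earlier results known, so its count of calls does not show an excess. Fgf21, a fasting hormone, fell by 2.30 (adjusted p = 0.0197) and Pdk4, which spares pyruvate, fell by 2.14 (adjusted p = 0.0151) on the log2 scale by edgeR. Fgf21 had 23, 44, 31 and 30 counts in WT and 13, 2, 3 and 6 counts in HKO livers. HKO replicates 2 and 3 were thus at or under the floor of 3 counts, and the size of its fall is uncertain. Cpt1a, which lets fatty acids into mitochondria, fell by 0.45 (edgeR adjusted p = 0.0378) and was called in 2 of the 8 fits without a liver, where Fgf21 and Pdk4 were called in 7 and Tat in 8. Tat, a tyrosine aminotransferase induced by glucocorticoids, rose by a log2 fold change of 0.87 (edgeR adjusted p = 0.0151). The 3 lower genes are also targets of PPARα. Angptl4, a further PPARα target of the list, had a log2 fold change of -0.07 (edgeR adjusted p = 0.842). It was named after its values were seen, and the part of PPARα was not tested. Igfbp1, an IGF-binding protein, had a log2 fold change of 1.55 (edgeR adjusted p = 0.284), with 1 HKO liver far above the others. The part of feeding state in the values of the clock genes was not tested. In bulk liver fewer cells of a type and less RNA per cell cannot be told apart, for the clock genes as for these.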

How the data were processed

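The data were RNA-Seq of 4 WT and 4 HKO livers, grouped by the genotype in the labels, with 1 table of 17810 genes for the series. The authors deposited estimated counts per gene, made by Partek's expectation-maximization quantification without normalization. STAR is also named in the submitters' processing notes, and the versions of both are not given in the sources used here. Of the values 80.3% were whole, and fractional values arise where reads fit more than 1 gene. Whether counting used strand is not stated. The labels name both rRNA depletion and a small RNA kit, so the kind of library is uncertain. The titles and column names give each liver a number of its own, though the descriptions of the 4 WT livers share the same number. The labels name no batch, and p-values measure the spread between these livers.

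Estimated counts were rounded and tested in R 4.3.3 with edgeR 4.0.16 (TMM, expression filter with a minimum count of 10, robust quasi-likelihood test, no covariate), with Benjamini-Hochberg adjustment over 12395 genes and a threshold of 0.05 for the adjusted p. Standard errors were taken from the F statistic, as the size of the log2 fold change over the root of F. Log2 CPM adds a prior count of 2. Exact permutation tests were two-sided over the 70 allocations of 8 livers, or over 40320 arrangements for a correlation. The comparison was repeated with DESeq2 1.42.0, with limma 3.58.1 (voom), with RLE or total count scaling, without the filter or with 10 counts required in every liver, with the replicate number as a block, and with each liver left out. The edgeR test was tried on simulated HKO and WT counts of 12265 genes, 200 of them altered, and recovered 72.7% at a log2 change of 1 and 97% at 2, with 5.1% false calls. On the same counts DESeq2 gave 14.7% false calls and limma-voom 6.4%. Changes as small as those of the clock genes were not simulated. Listed positions fit RefSeq GRCm38.p6 in start or end for 82.5% of 17789 symbols matched. No promoter entry was found for Per2.

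Named were all core clock genes with the value in every liver, 8 other clock genes chosen by name, genes of the output and fasting lists with an adjusted p under 0.05 and at most 3 more per list of the largest change, and the 5 genes most like Dbp and Npas2. The list for Npas2 could not be made, as it was under the filter. A few genes of the lists are not reported here and were left out of their counts. The clock genes and all lists were chosen with earlier results of these data known.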

Additional observations from a re-analysis of the deposited data

Results flagged for a closer look

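The outlier check covered 90 groups of 4 livers, for the core clock genes, the genes picked from the lists by rule and the summed markers of each cell type. Of these, 3 had 1 liver far from the other 3, by Dixon's criterion on the gap relative to the range, where chance gives about 1 in 20. None of these was a core clock gene. Avpr1a was at 38.5 CPM in HKO replicate 4 and between 22.2 and 24.8 CPM in the other HKO livers, and without that liver it was still called. Pdk4 was at 27.4 CPM in WT replicate 2 and between 10.8 and 12.1 CPM in the other WT livers. Igfbp1, a fasting gene, was at 125 CPM in HKO replicate 4 and between 22.9 and 26.4 CPM in the other HKO livers. Other genes named in the text, such as Usp2, Timeless, Angptl4 and the single cell type markers, were not checked. Among these markers, Krt19 was at 16.9 CPM in HKO replicate 2 and between 0.169 and 0.405 CPM in the other HKO livers.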

How the results depend on the processing

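The count of core clock genes called was 0 in each of the 15 alternatives, as was that of the other clock genes. All genes called numbered 1014 with DESeq2 against 638 with edgeR, and between 222 (without WT replicate 2) and 599 (without WT replicate 4) when a liver was left out. Clock outputs called numbered 4, 6 with DESeq2, and between 1 (without WT replicate 2) and 5 (without HKO replicate 1) when a liver was left out. With total count scaling the log2 fold change turned to -0.022 for Clock, to -0.055 for Per3, to -0.0023 for Dbp and to -0.039 for Rora. Leaving out a liver gave values from -0.21 to 0.056 for Per2, -0.10 to 0.10 for Per3, -0.062 to 0.16 for Dbp, -0.0081 to 0.32 for Nr1d1, -0.021 to 0.10 for Rora and -0.061 to 0.49 for Ciart. None of these was past the threshold, and the cause was not tested. The replicate numbers belong to different mice, and the same-numbered livers did not deviate together (r from -0.15 to 0.01), nor did every liver correlate best with its own number. With the replicate number as a block 0 clock genes, 2 clock outputs and 470 genes in all were called. For the genes picked from the lists by rule outside the core clock, 31 values lost their call and 5 gained one under an alternative. The count of clock genes with a larger SD in HKO livers was 8 with total count scaling and a prior count of 0.5, a setting chosen after seeing the data. Npas2 entered the fit without the filter on low counts, where 0 core clock genes were called. At this depth a difference in it was not detectable, and with 4 livers per genotype small shifts in the clock would not be detected.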

Other observations

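Genes that respond to body temperature, which passes rhythms to the liver, showed no calls. Of 8 tested, among them Cirbp, Rbm3 and the heat shock genes, 0 had an adjusted p under 0.05 and 2 an unadjusted p under 0.05 with edgeR, against 5.15% and 19.6% of all genes. Hspa8, a constitutive chaperone, had a log2 fold change of 0.26, Hspa1b of -0.69 and Hsph1 of 0.33. Of 9 immediate early genes, which react within minutes to handling and feeding, 1 was called. Jun fell by 0.56 on the log2 scale (SE 0.15, edgeR adjusted p = 0.0483), a call that was lost with RLE scaling (adjusted p = 0.0502), with the replicate block (adjusted p = 0.080) and in 6 of the 8 fits without a liver by edgeR, while Atf3 had -1.01 and Egr1 0.84 without a call by edgeR over all livers. The HKO livers had the larger SD of log2 CPM in 17 of the 19 clock outputs and in 16 of the 21 other clock genes, against 53.7% of all genes. They also had it in 7 of the 9 immediate early genes and 8 of the 12 fasting genes, but in 2 of the 8 temperature genes. All lists were read in the same livers, so these counts are not independent.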
